A study of Mus musculus with 3 samples.

Results

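Mouse bone marrow derived dendritic cells that had been treated with the bacterium YB328 were compared with cells that had been treated with the bacterium P. vulgatus. The comparison used 2 of the 3 libraries of the series, chosen by their treatment label, and all genes of the deposited table. Of 55487 genes, 9764 reached 5 CPM (read counts put on a common library size) in either treated library and were compared. The cells of all groups were wild type (WT), and the third library, from untreated cells, served as a reference level. Since each group had 1 library, the differences have no replicate check, and no p-value is given. The sources used here do not give the dose, the exposure time, whether the bacteria were alive or the type of marrow culture. The comparison addresses how the response of dendritic cells to YB328 differs from their response to another gut bacterium.

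Dendritic cells take up microbes, sense them through Toll-like receptors and C-type lectins, and answer with cytokines, chemokines and costimulatory molecules that direct T cells. Activated dendritic cells also change their metabolism towards glycolysis, and the transcription factor HIF-1 drives many glycolytic genes when it is stable. The aryl hydrocarbon receptor is a transcription factor that binds small ligands, among them bacterial metabolites of tryptophan, and induces its own repressor and cytochrome P450 enzymes. Phocaeicola vulgatus is a Gram-negative member of the gut flora whose outer membrane carries lipopolysaccharide.

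The libraries of untreated, P. vulgatus and YB328 cells held 15538132.9, 26660869.8 and 26924006.2 deposited counts, and between 19222 and 19503 genes had at least 1 count. The bacterial libraries were alike in RNA makeup and both differed from the untreated library: nuclear protein-coding genes without Lars2 took 95.3% of counts with P. vulgatus, 96.6% with YB328 and 57.9% in untreated cells. The share of ribosomal RNA genes was 0.789% with P. vulgatus, 0.386% with YB328 and 9.54% untreated, and that of mitochondrial protein-coding genes was 0.748%, 0.577% and 12.8%. The part of this difference in the untreated levels printed below was not tested. Markers of dendritic cells were present in both treated libraries. Zbtb46, a transcription factor of conventional dendritic cells, was at 69.7 CPM (P. vulgatus) and 65.7 CPM (YB328), and the class II gene H2-Ab1 at 2694 and 2181 CPM. Lamp3, a marker of mature dendritic cells, and Clec9a, a marker of the type 1 subset, had 0 counts in both, which allows levels up to 0.113 and 0.11 CPM. In these bulk samples, fewer cells of a type and less RNA per cell cannot be told apart.

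The 2 treated libraries were close to each other for most genes. The median log2 ratio of YB328 to P. vulgatus was 0.0004, and 77.6% of compared genes lay within 0.5 log2 and 94.4% within 1. A gene was called higher on a side by a rule of size: a log2 ratio of at least 1 after 0.5 CPM was added to both levels, and a 95% interval of the count ratio (exact, Clopper-Pearson) that excluded 1. By this rule 545 genes were called, 5.58% of those compared: 282 were higher with YB328 (2.89%) and 263 were higher with P. vulgatus (2.69%). Of these, 43 and 36 differed by at least 2 log2. The interval alone excluded 1 for 6928 genes, 71% of those compared, so at this depth the size of the ratio and not the counting error decided most calls. Intervals and floors cover counting error only, and PCR copies were not removed by molecular identifiers, so reads are not independent molecules. The plot of levels in both libraries shows the narrow body of genes along the diagonal and the called genes outside it.

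**Figure D1:**
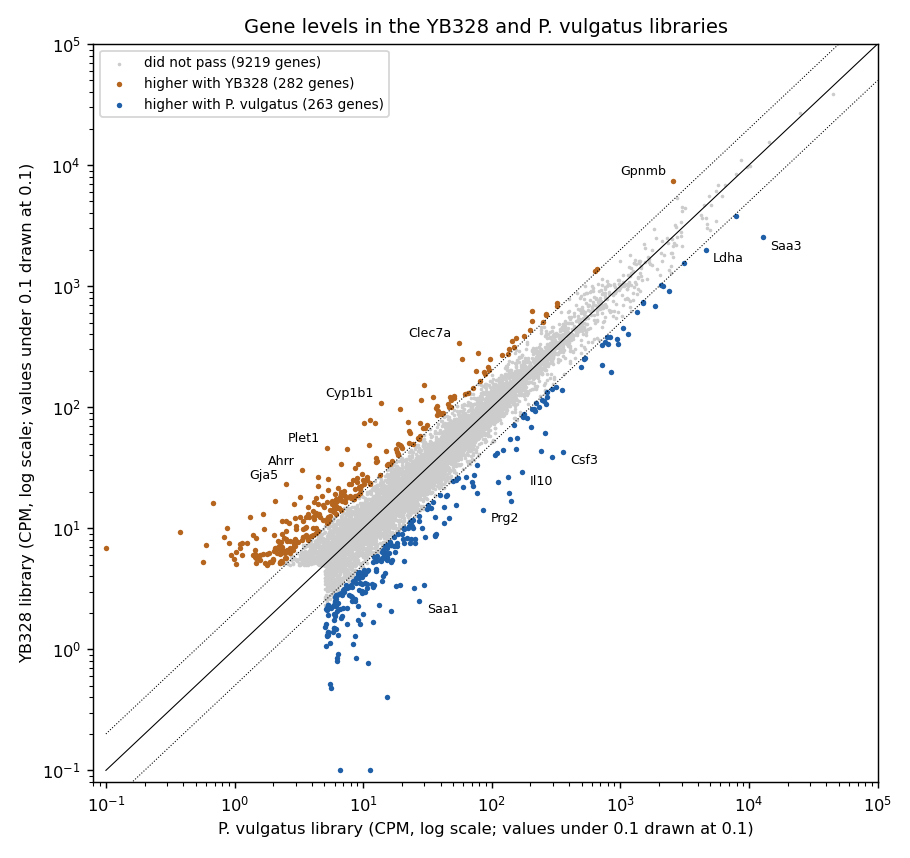
Level of each of the 9764 compared genes in the P. vulgatus library (horizontal axis) and the YB328 library (vertical axis), in CPM on log scales, 1 library each. Coloured points are the 282 genes called higher with YB328 and the 263 called higher with P. vulgatus, and grey points are the others. The solid line marks equal levels, the dotted lines a fold of 2, and levels under 0.1 CPM are drawn at 0.1.

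Acute phase genes were among those higher with P. vulgatus. Saa1 (ENSMUSG00000074115.5, GRCm38 chr7:46740497-46742980, minus strand) and Saa3 (ENSMUSG00000040026.8, chr7:46711998-46715700, minus strand) encode serum amyloid A proteins, which are secreted in acute inflammation. Saa3 was read at 37.3 CPM in untreated cells, 12806 with P. vulgatus and 2535 CPM with YB328. Its level with P. vulgatus was 5.05-fold above that with YB328 (95% interval 5.01 to 5.09), and both were above the untreated library. Saa1 was read at 0.194, 27.4 and 2.53 CPM in the same order, 10.9-fold higher with P. vulgatus (95% interval 8.47 to 14.1). The untreated value of Saa1 rests on 3 counts. Slpi, an inhibitor of neutrophil proteases, was read at 57.6, 2406 and 909.8 CPM, and Chil1, a chitinase-like secreted protein, at 18.4, 14.5 and 6.04 CPM. Of 11 compared members of the list of acute phase and antimicrobial effectors, these 4 were higher with P. vulgatus and 0 were higher with YB328, beside 2.69% and 2.89% of all compared genes. The other 7 did not pass. All 11 had a ratio below 0, with a median of -0.52 beside 0.0004 over all compared genes. The serum amyloid genes are close relatives, and how the counting divided their reads is not given.

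Several cytokine genes were also higher with P. vulgatus. Csf3 (ENSMUSG00000038067.2, chr11:98701263-98703629, plus strand), the granulocyte colony-stimulating factor, had 1 count in untreated cells, 356 with P. vulgatus and 43.0 CPM with YB328. It was 8.27-fold higher with P. vulgatus (95% interval 7.78 to 8.8). Il10 (ENSMUSG00000016529.5, chr1:131019845-131024974, plus strand), the anti-inflammatory interleukin 10, had 0 counts in untreated cells, 173 with P. vulgatus and 29.1 CPM with YB328, a 5.94-fold difference (95% interval 5.51 to 6.42). Il19, a relative of interleukin 10, had 0 counts untreated, 29.7 with P. vulgatus and 3.37 CPM with YB328, an 8.83-fold difference (95% interval 7.1 to 11.1). These 3 genes were at or within 1 count of 0 in untreated cells and were detected with both bacteria. Il33, an alarmin, was 4.18-fold higher with P. vulgatus with 952 against 235 counts, and Il6, a pleiotropic inflammatory cytokine, was 2.2-fold higher at 717.5 against 326 CPM. Of 20 compared cytokines, these 5 were higher with P. vulgatus and 0 with YB328 (2.69% and 2.89% of all compared genes were), and 17 of 20 ratios lay below 0 (median -0.59).

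Interleukin 12, Tnf and interferon beta, which act in type 1 immunity, did not pass the rule. Il12a, the p35 subunit of interleukin 12, was read at 4.91 with P. vulgatus and 7.95 CPM with YB328 (log2 ratio 0.64), and Il12b, the shared p40 subunit, at 122 and 97.8 CPM (log2 ratio -0.32). Tnf was read at 102 and 81.0 CPM. Ifnb1, interferon beta, had 34 counts with P. vulgatus and 32 with YB328, and Cxcl9, an attractant of T cells, had 23 and 42, both under the 5 CPM that the comparison asked. The inflammatory cytokines Il1a and Il1b, chosen after their values were seen, had log2 ratios of -0.80 and -0.84 and did not pass.

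Chemokines were called on both sides. Cxcl1, which attracts neutrophils, was read at 717 with P. vulgatus and 223 CPM with YB328, a 3.21-fold difference (95% interval 3.12 to 3.3), and its relative Cxcl2 at 1847 and 688 CPM, a 2.68-fold difference. Ccl3 and Ccl4, which attract monocytes and other leukocytes, were 2.06-fold and 2.08-fold higher with P. vulgatus, close to the limit of the rule. Ccl24, an attractant of eosinophils, lay on the other side, at 2.08 with P. vulgatus and 16.7 CPM with YB328, an 8.04-fold difference (95% interval 6.07 to 10.8). Ccl9 was 2.02-fold higher with YB328 and did not pass with median-of-ratios scaling. Of 19 compared chemokines, 4 were higher with P. vulgatus and 2 with YB328, beside 2.69% and 2.89% of all compared genes. The median was -0.13, and it turned to 0.08 with the deposited TPM, under which Ccl3 and Ccl4 were just under the ratio asked (1181 and 604 for Ccl3, 1499.6 and 759 for Ccl4). Cxcl10, a ligand of CXCR3 that interferon induces, was read at 147 and 133 CPM and did not pass.

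**Figure D2:**
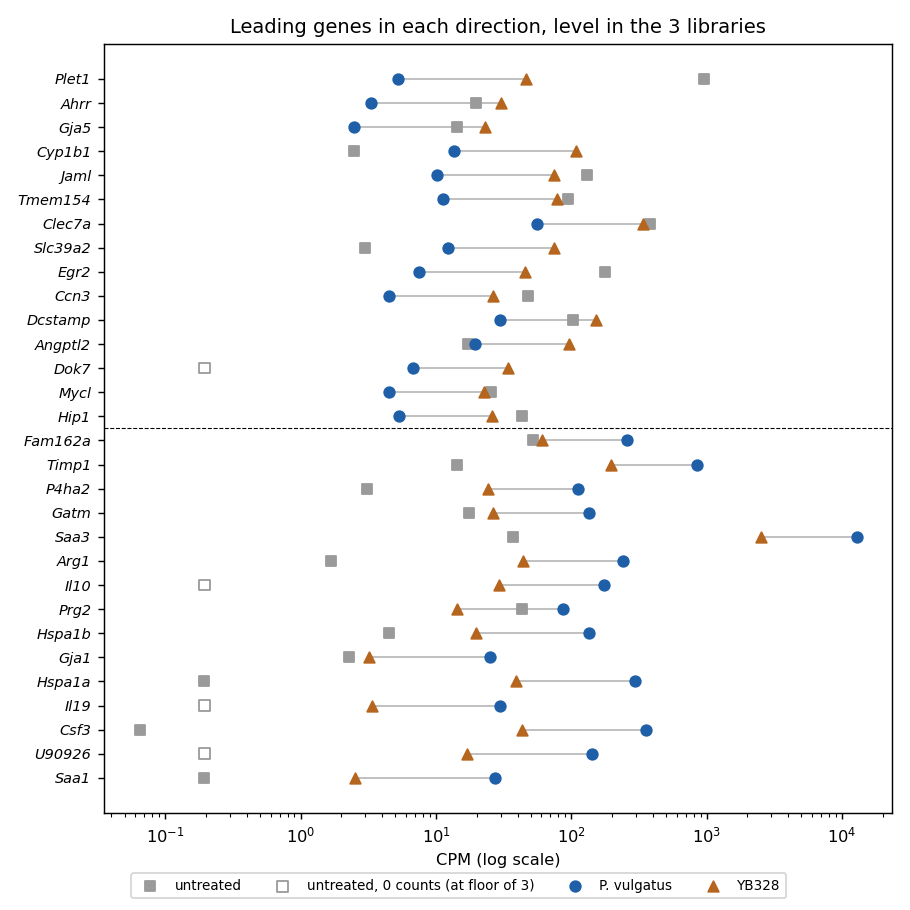
Levels in CPM on a log scale in untreated, P. vulgatus and YB328 cells (1 library each) of the genes with the largest ratios in each direction. Points are single libraries, and open squares are untreated values of 0 counts drawn at the floor of 3 counts. Saa1, Csf3, Il19 and Hspa1a are highest with P. vulgatus, while Plet1, Jaml and Clec7a are highest in untreated cells and lowest with P. vulgatus.

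Genes of glycolysis and of the response to low oxygen were the list with the most members higher with P. vulgatus. Of 34 compared members, 14 were higher with P. vulgatus and 0 with YB328, beside 2.69% of all compared genes. Of the 34 ratios, 31 lay below 0, and they ran from -2.70 to 0.83 with a median of -0.94. The glycolytic enzymes Ldha (lactate dehydrogenase A), Pgk1 (phosphoglycerate kinase) and Hk2 (a hexokinase) passed the rule. Ldha was read at 1077 CPM in untreated cells, 4594 with P. vulgatus and 2001 CPM with YB328, a 2.3-fold difference between the bacteria (95% interval 2.27 to 2.32). Pgk1 was read at 278, 1049 and 453 CPM in the same order, a 2.32-fold difference (95% interval 2.27 to 2.37). Both enzymes were above the untreated level with either bacterium. Hk2 was read at 99.3, 173 and 84.2 CPM, so the YB328 library lay below the untreated one. Pfkfb3, which makes the activator of phosphofructokinase, and the glucose carrier Slc2a3 were 2.2-fold and 2.88-fold higher with P. vulgatus.

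Members that sense or answer low oxygen moved with the enzymes. Adm, the vasodilator adrenomedullin, was read at 16.4 with P. vulgatus and 2.09 CPM with YB328, and P4ha2, a collagen prolyl hydroxylase, at 112 and 24.2 CPM. Their folds were 7.84 (95% interval 5.94 to 10.5) and 4.63 (95% interval 4.25 to 5.04). Bnip3, which acts in mitophagy, was read at 807 and 334 CPM, and Ero1l, an oxidase of the endoplasmic reticulum, at 949.8 and 363 CPM. Egln1 and Egln3, the prolyl hydroxylases that mark HIF for degradation, were read at 293 and 142 CPM and at 269 and 122 CPM. Hif1a itself, the oxygen-sensitive subunit of HIF-1, did not pass, at 165.9 with P. vulgatus and 146 CPM with YB328. Members just outside the rule included Pdk1 at 78.5 and 39.5 CPM, Tpi1 at 2497 and 1278 CPM and Gapdh at 1204 and 624 CPM, with log2 ratios of -0.98, -0.97 and -0.95. The members with a ratio above 0 were Slc2a6 (0.69), Hk3 (0.82) and Pfkfb4 (0.83). Pgk1 and Gapdh have processed pseudogenes with near-identical sequence, and 14 of 165 compared processed pseudogenes were higher with P. vulgatus and 1 with YB328.

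The core of the hypoxia response element, ACGTG on either strand, is shown in the promoters of these members because 9 of the 10 promoters held it. The letters ACGTG also lie within the E-box CACGTG, and a match is a description of letters and not of binding. Of the 14 members higher with P. vulgatus, 10 had a promoter in the RefSeq table (build GRCm38.p6, 250 bases before to 50 after the start), and Adm was the 1 without ACGTG. It was held by 6 of 18 list members that did not pass (33.3%), by 27.6% of 7040 compared genes with a promoter and by 19.6% of all 32851 promoters of the table. The motif was chosen after the values were seen. The list was made of genes of glycolysis and of the response to low oxygen, many of which HIF-1 drives. These shares are therefore no test of HIF-1. For each of the 9, the match nearest the start is given with 12 bases on either side, 5′ to 3′ on the strand of the gene, with the match in capitals (ACGTG, or its reverse complement CACGT).
P4ha2, chr11:54100922-54100950, plus strand: cgggaggtggggACGTGgcggaggctcaa
Slc16a1, chr3:104638672-104638700, plus strand: tggcgagctgcgACGTGactggtcggtcg
Bnip3, chr7:138909597-138909625, minus strand: cgcacgcgccgcACGTGccacacgctccc
Pgk1, chrX:106186957-106186985, plus strand: aaatggaagtagCACGTctcactagtctc
Egln3, chr12:54204087-54204115, minus strand: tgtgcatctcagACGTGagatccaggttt
Pfkfb3, chr2:11553973-11554001, minus strand: ctccgcgccgtgACGTGccaagctgtgac
Mif, chr10:75860232-75860260, minus strand: actgagctgggtCACGTagctcaggtccc
Egln1, chr8:124949306-124949334, minus strand: gggccgtggtgtACGTGcagcgcgcgcgg
Hk2, chr6:82774490-82774518, minus strand: aatgagcacatcCACGTcactgtccgggg

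Arginine and prostaglandin enzymes gave further genes higher with P. vulgatus. Arg1, the arginase that uses up arginine, was read at 1.68 CPM in untreated cells, 242 with P. vulgatus and 43.8 CPM with YB328, a 5.52-fold difference (95% interval 5.18 to 5.87). Its mitochondrial relative Arg2 was 2.63-fold higher with P. vulgatus, and Ass1, which rebuilds arginine from citrulline, was 2.13-fold higher with YB328. Nos2, the nitric oxide synthase that competes for arginine, differed by a log2 ratio of only 0.11 (1142 and 1236 CPM). Gatm, which takes the amidino group of arginine for creatine synthesis, was read at 17.5, 134 and 26.4 CPM in untreated, P. vulgatus and YB328 cells, 5.09-fold higher with P. vulgatus (95% interval 4.7 to 5.53). Ptgs2, the inducible cyclooxygenase, was read at 1152 with P. vulgatus and 405 CPM with YB328, 2.85-fold apart (95% interval 2.78 to 2.91). Ptgs1, the constitutive cyclooxygenase, went the other way, at 103 CPM in untreated cells, 4.31 with P. vulgatus and 17.6 CPM with YB328. Medians of the lists lay near 0, at 0.07 for arginine, itaconate and tryptophan metabolism (14 compared) and -0.00 for prostaglandin and leukotriene synthesis (16 compared), and both turned sign in some settings.

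The inducible heat shock genes Hspa1a and Hspa1b, which encode HSP70 proteins, were higher with P. vulgatus. Hspa1a was read at 0.194 CPM in untreated cells (3 counts), 295 with P. vulgatus and 39.1 CPM with YB328, a 7.56-fold difference (95% interval 7.09 to 8.07). Hspa1b was read at 4.47, 136 and 19.6 CPM. The genes are near-identical copies, so the division of reads between them is uncertain. Hsp90aa1, a stress-inducible HSP90, was 2.07-fold higher with P. vulgatus. Of 20 compared heat shock proteins, these 3 were higher with P. vulgatus and 0 with YB328, beside 2.69% and 2.89% of all compared genes. The other 17 did not pass (median of the list -0.07, and 0.05 with the deposited TPM).

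Other genes with large ratios towards P. vulgatus had varied roles. Timp1, an inhibitor of metalloproteinases, was read at 843 and 195 CPM, and Gja1, the gap junction protein connexin 43, had 662 and 87 counts. U90926, annotated as a processed transcript, had 0 counts in untreated cells, 142 with P. vulgatus and 16.8 CPM with YB328. Prg2 and Epx, granule proteins of eosinophils, were read at 86.0 and 14.2 CPM and at 9.18 and 2.27 CPM. Siglecf, a surface marker of eosinophils chosen for this purpose after the values were seen, had 9 counts with P. vulgatus and 0 with YB328. Markers of mast cells, basophils and eosinophils summed to 107.4 CPM in untreated cells, 161.7 with P. vulgatus and 66.9 CPM with YB328. Prg2 alone made up most of the difference between the bacteria. Of 5 compared members, only Prg2 and Epx passed, beside 2.69% of all compared genes higher with P. vulgatus. Among the 5, 2 ratios lay above 0 (up to 0.75). With the deposited TPM, Epx was under the minimum of 5 (3.687 and 1.244). The mast cell protease Mcpt4 was at 0 in both treated libraries. The part of these cells in the differences was not tested.

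**Figure D3:**
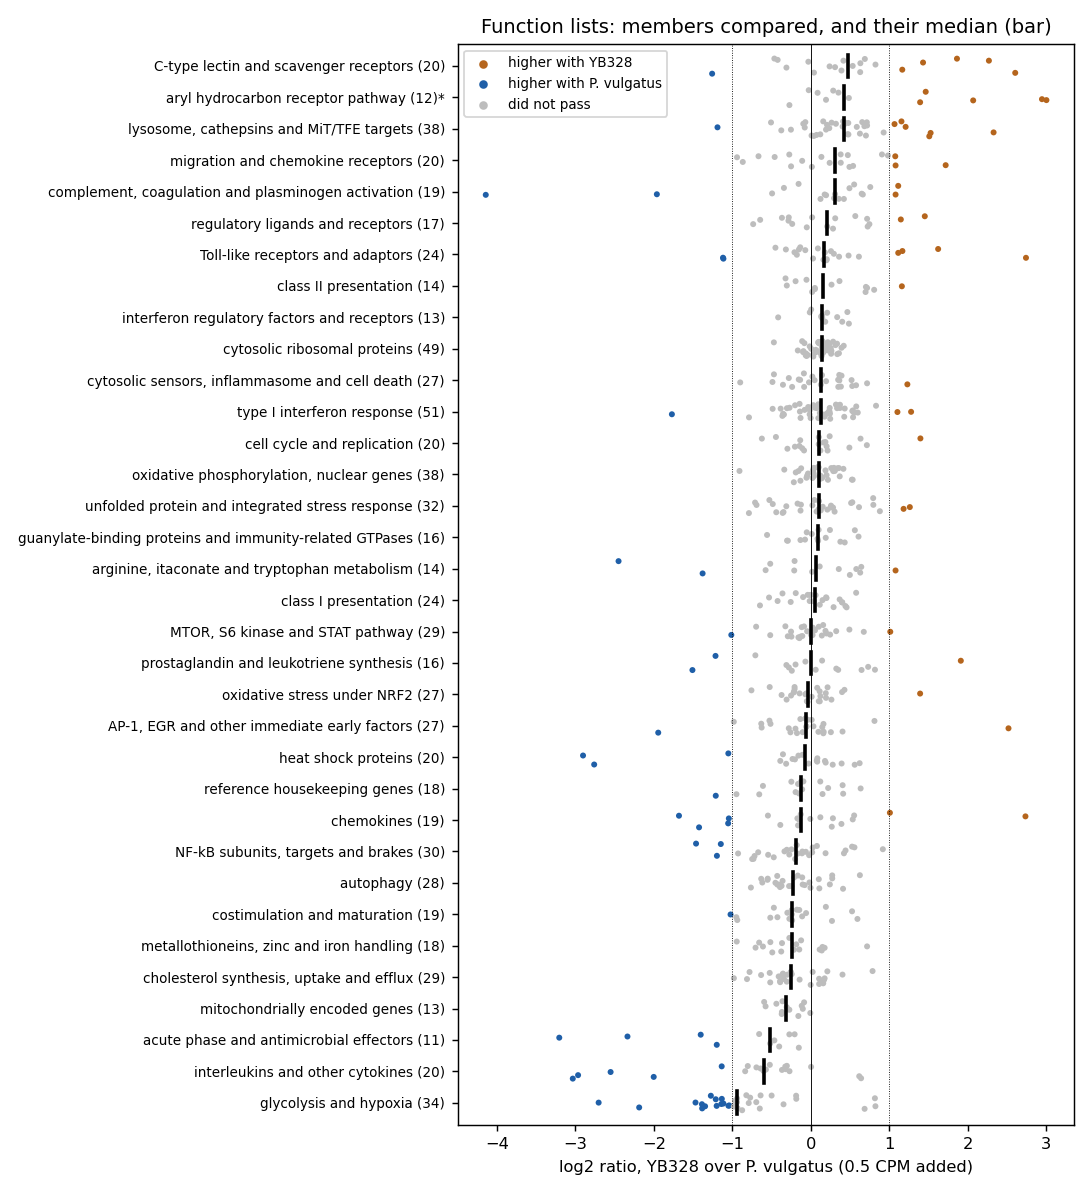
Log2 ratio of YB328 to P. vulgatus (0.5 CPM added) of each compared member of the function lists (points) and the median of each list (bars), with the number of compared members in parentheses and 1 library per side. The median of glycolysis and hypoxia lies at -0.94 and that of the lysosome list at 0.42, and an asterisk marks the list that was added after the values were seen.

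Several of the genes with the largest ratios towards YB328 were far below the untreated level with P. vulgatus. Plet1 (ENSMUSG00000032068.14, chr9:50494525-50505482, plus strand), a surface glycoprotein, was read at 949.9 CPM in untreated cells, 5.21 with P. vulgatus and 46.1 CPM with YB328. It was 8.85-fold higher with YB328 than with P. vulgatus (95% interval 7.42 to 10.6) and below the untreated level with both. Jaml, a junctional adhesion molecule, was read at 130, 10.1 and 74.6 CPM in the same order, Tmem154 at 94.2, 11.3 and 78.4 CPM, and Egr2, a zinc finger transcription factor, at 178, 7.44 and 45.1 CPM. These 4 genes shared an order, with untreated cells highest, YB328 in between and P. vulgatus lowest. Itgax, the integrin CD11c by which dendritic cells are often sorted, had that order too, at 273, 22.5 and 75.4 CPM, and was 3.35-fold higher with YB328 (95% interval 3.05 to 3.67). Lpl, lipoprotein lipase, was read at 961, 204 and 620.2 CPM.

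Other leading genes were above or near the untreated level with YB328. Gja5 (connexin 40) was read at 14.3, 2.49 and 23.1 CPM in untreated, P. vulgatus and YB328 cells. Dcstamp, a protein needed for the cell fusion that forms osteoclasts, was read at 103, 29.7 and 151 CPM. Both were lowest with P. vulgatus. Slc39a2, a zinc importer, was read at 2.98, 12.3 and 73.8 CPM, Angptl2, a secreted angiopoietin-like protein, at 17.1, 19.3 and 96.6 CPM, and Dok7, an adaptor protein, at 0, 6.76 and 34.1 CPM. Slc39a2 and Dok7 were above the untreated level with both bacteria. Angptl2 was above it with YB328 and near it with P. vulgatus (1.13-fold). These 3 were 5.01-fold to 5.99-fold higher with YB328 than with P. vulgatus. Mycl, a transcription factor known from type 1 dendritic cells, was 5.01-fold higher with YB328, at 25.7, 4.5 and 22.5 CPM.

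The place of the untreated level was counted over all called genes. Of the 282 genes higher with YB328, the untreated level lay above both bacteria for 93 (33%), between them for 92 (32.6%) and below both for 97 (34.4%). Of the 263 genes higher with P. vulgatus, it lay above both for 54 (20.5%), between for 64 (24.3%) and below both for 145 (55.1%). Over all compared genes the shares were 34.1%, 11.2% and 54.7%. A wider gap between the treated libraries leaves more room for a level between them, so the share in between is no measure of direction. With scaling and comparison restricted to nuclear protein-coding genes without Lars2, which was tried after the values were seen, the untreated level lay below both for 32.8% of genes higher with YB328 and 52.4% of those higher with P. vulgatus.

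**Figure D4:**
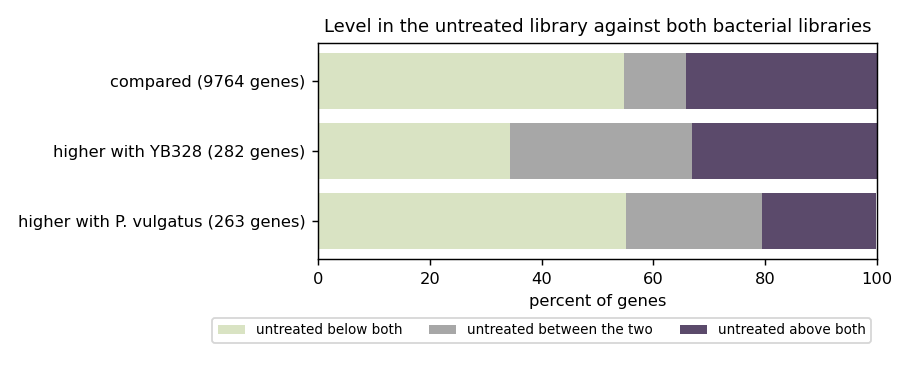
Share of genes whose untreated level lay above both treated libraries, between them or below both, for all compared genes and for the genes higher with each bacterium (percent, 1 library per treatment). The untreated level lay below both for 55.1% of genes higher with P. vulgatus and for 34.4% of genes higher with YB328.

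Targets of the aryl hydrocarbon receptor were among the genes higher with YB328. Ahrr (ENSMUSG00000021575.16, chr13:74211118-74292331, minus strand), the repressor of the receptor, was read at 19.8 CPM in untreated cells, 3.32 with P. vulgatus and 30.2 CPM with YB328, 9.09-fold higher with YB328 (95% interval 7.29 to 11.5). Cyp1b1 (ENSMUSG00000024087.4, chr17:79701537-79715061, minus strand), a cytochrome P450 enzyme, was read at 2.46, 13.7 and 109 CPM in the same order, 7.97-fold higher with YB328 (95% interval 7.14 to 8.91). Ahrr was thus below and Cyp1b1 above the untreated level with P. vulgatus, and both were highest with YB328. The glutathione transferase Gsta2 was read at 11.1 and 48.4 CPM with P. vulgatus and YB328, its close relative Gsta1 at 2.04 and 6.52 CPM, and the quinone reductase Nqo1 at 75.8 and 200.2 CPM. Of 12 compared members of a list of this pathway, these 5 were higher with YB328 and 0 with P. vulgatus (median 0.42), but the list was written because Ahrr and Cyp1b1 led the ratios, so its count supports nothing. Other known targets of the receptor did not pass. Cyp1a1 had 11 counts with P. vulgatus and 68 with YB328, under the level compared, Tiparp was read at 177 and 174 CPM, and Aldh3a1 was at 0 in both. Ahr, the receptor itself, had 514 and 437 counts. Nqo1 is also a target of NRF2, and it was the only one of 27 compared genes of the NRF2 list to pass.

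The promoters of Plet1, Ahrr and Il19 are shown because they belong to genes with leading ratios and held a motif searched. Each is the 250 bases before the RefSeq start (GRCm38.p6), 5′ to 3′ on the strand of the gene, with matches in capitals.
Plet1, chr9:50494275-50494524, plus strand: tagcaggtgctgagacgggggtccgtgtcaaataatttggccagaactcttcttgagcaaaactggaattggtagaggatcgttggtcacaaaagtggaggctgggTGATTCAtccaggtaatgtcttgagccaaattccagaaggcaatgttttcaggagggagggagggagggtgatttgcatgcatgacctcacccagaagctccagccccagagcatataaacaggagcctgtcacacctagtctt
Ahrr, chr13:74292332-74292581, minus strand: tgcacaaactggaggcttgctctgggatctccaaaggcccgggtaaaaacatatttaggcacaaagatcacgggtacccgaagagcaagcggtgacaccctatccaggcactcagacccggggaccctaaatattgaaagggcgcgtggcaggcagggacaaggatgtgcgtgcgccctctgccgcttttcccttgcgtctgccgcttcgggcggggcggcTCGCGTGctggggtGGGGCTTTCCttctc
Il19, chr1:130940116-130940365, minus strand: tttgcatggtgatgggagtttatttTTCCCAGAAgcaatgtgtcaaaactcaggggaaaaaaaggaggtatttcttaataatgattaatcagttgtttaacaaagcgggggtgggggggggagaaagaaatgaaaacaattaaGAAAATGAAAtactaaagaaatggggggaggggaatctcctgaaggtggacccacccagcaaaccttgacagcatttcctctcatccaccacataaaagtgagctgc
In Plet1 the capitals mark an AP-1 site (TGANTCA) that starts at -144, counted back from the start. In Ahrr they mark a xenobiotic response element (TNGCGTG, the letters bound by the aryl hydrocarbon receptor) at -29 and a kappa B site (GGG, any 2 bases, TTTCC) at -15. In Il19 they mark a STAT site (TTCNNNGAA) at -225 and an interferon-stimulated response element (GAAA, any 2 bases, GAAA) at -107. The promoters of Cyp1b1, Saa1 and U90926, also among the leading genes, held none of the 9 motifs searched in the same 250 bases. Of the aryl hydrocarbon receptor list, 4 members higher with YB328 had a promoter in the RefSeq table. In the window used for ACGTG above, only 1 of these 4 promoters, that of Ahrr, held the xenobiotic response element. Those of Cyp1b1, Gsta1 and Nqo1 did not hold it. Of 5 promoters of list members that did not pass, 0 held it.

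Over all genes with a promoter, searched on both strands, AP-1 letters were held by 21 of 194 promoters of genes higher with YB328 (10.8%), by 12 of 169 of genes higher with P. vulgatus (7.1%) and by 4.94% of the 7040 compared. Kappa B letters were held by 3.61%, 3.55% and 1.73%, and xenobiotic response letters by 6.19%, 5.33% and 8.72%, in the same order. The shares of the latter in both called sets were thus below that of all compared genes. ACGTG was held by 20.6% of promoters of genes higher with YB328 and by 31.4% of those of genes higher with P. vulgatus. Over all 32851 promoters of the table the shares were 7.81% for AP-1, 1.63% for kappa B and 5.07% for the xenobiotic element.

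Surface lectins and scavenger receptors, by which dendritic cells bind microbes and dying cells, held several genes higher with YB328. Clec7a (ENSMUSG00000079293.11, chr6:129461591-129472779, minus strand), the beta-glucan receptor dectin-1, was read at 383 CPM in untreated cells, 55.5 with P. vulgatus and 341 CPM with YB328. It was 6.14-fold higher with YB328 (95% interval 5.81 to 6.49), with YB328 cells near the untreated level. The annotation types it as a polymorphic pseudogene. Colec12, a scavenger collectin, had 77 counts with P. vulgatus and 436 with YB328, and Clec10a, a lectin for galactose residues, had 54 and 239, while Clec4a3 had 335 and 956. Cd36, a receptor for oxidised lipids, was read at 119 and 268 CPM. Mrc1, the mannose receptor, went the other way at 6.12 and 2.27 CPM, and its deposited TPM (1.65 and 0.492) was in the same direction but under the minimum of 5. Of 20 compared members, 5 were higher with YB328 and 1 with P. vulgatus, beside 2.89% and 2.69% of all genes, and 15 of 20 ratios lay above 0 (median 0.48).

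Among Toll-like receptors and their partners, several receptors that act in endosomes stood on the YB328 side. Tlr12, a receptor for profilin, had 22 counts with P. vulgatus and 230 with YB328, or 0.831 and 8.42 CPM, 10.1-fold apart (95% interval 6.53 to 16.5). Tlr13, a receptor for bacterial ribosomal RNA, was read at 31.6 and 71.7 CPM, and Tlr7, a receptor for single-stranded RNA, at 9.44 and 21.1 CPM, with folds of 2.27 and 2.23. Cd180, a surface relative of Tlr4, was 3.56-fold higher with YB328 at 2.19 and 7.8 CPM. Cd14, the coreceptor for lipopolysaccharide, was higher with P. vulgatus, at 109 CPM in untreated cells, 2163 with P. vulgatus and 999.7 CPM with YB328 (2.16-fold, 95% interval 2.13 to 2.19), as was the adaptor Ticam2 (2.24-fold). The receptors for bacterial lipids and lipopolysaccharide did not pass: Tlr2 was read at 164 and 188 CPM and Tlr4 at 37.1 and 47.9 CPM. Tlr9, a receptor for bacterial DNA, had 18 and 49 counts, under the level compared. Of the other endosomal receptors, Tlr3 was compared and did not pass, and Tlr8 and Tlr11 were also under the level compared. Of 24 compared members, 4 were higher with YB328 and 2 with P. vulgatus (median 0.17), beside 2.89% and 2.69% of all compared genes. With the deposited TPM, Tlr12 stayed under the minimum of 5 at 0.276 and 3.359, a difference in the same direction, while Cd180 (2.761 and 4.857) was also under the minimum and Ticam2 (5.375 and 2.567) was just under the ratio asked.

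Several lysosomal genes were higher with YB328. Gpnmb (ENSMUSG00000029816.10, chr6:49036546-49070929, plus strand), a glycoprotein of lysosomes and phagosomes, was read at 364 CPM in untreated cells, 2581 with P. vulgatus and 7449 CPM with YB328, 2.89-fold apart (95% interval 2.86 to 2.91). Grn, the lysosomal growth factor progranulin, was read at 340.4, 631 and 1324 CPM, and the protease Ctsl at 52.7, 262 and 586 CPM. These 3 were above the untreated level with both bacteria. Tfeb, the transcription factor that drives lysosomal genes, was read at 12.6, 4.12 and 12.7 CPM, 3.08-fold higher with YB328 (95% interval 2.47 to 3.85). Its relatives Tfe3 and Mitf did not pass, at log2 ratios of -0.51 and 0.72. Atp6v0d2, a proton pump subunit, was 2.33-fold higher with YB328, and Ctsc, a protease that activates granule enzymes, was 2.28-fold higher with P. vulgatus. Of 38 compared members, 6 were higher with YB328 and 1 with P. vulgatus, beside 2.89% and 2.69% of all compared genes, and 31 did not pass. Of the 38 ratios, 31 lay above 0 (median 0.42).

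**Figure D5:**
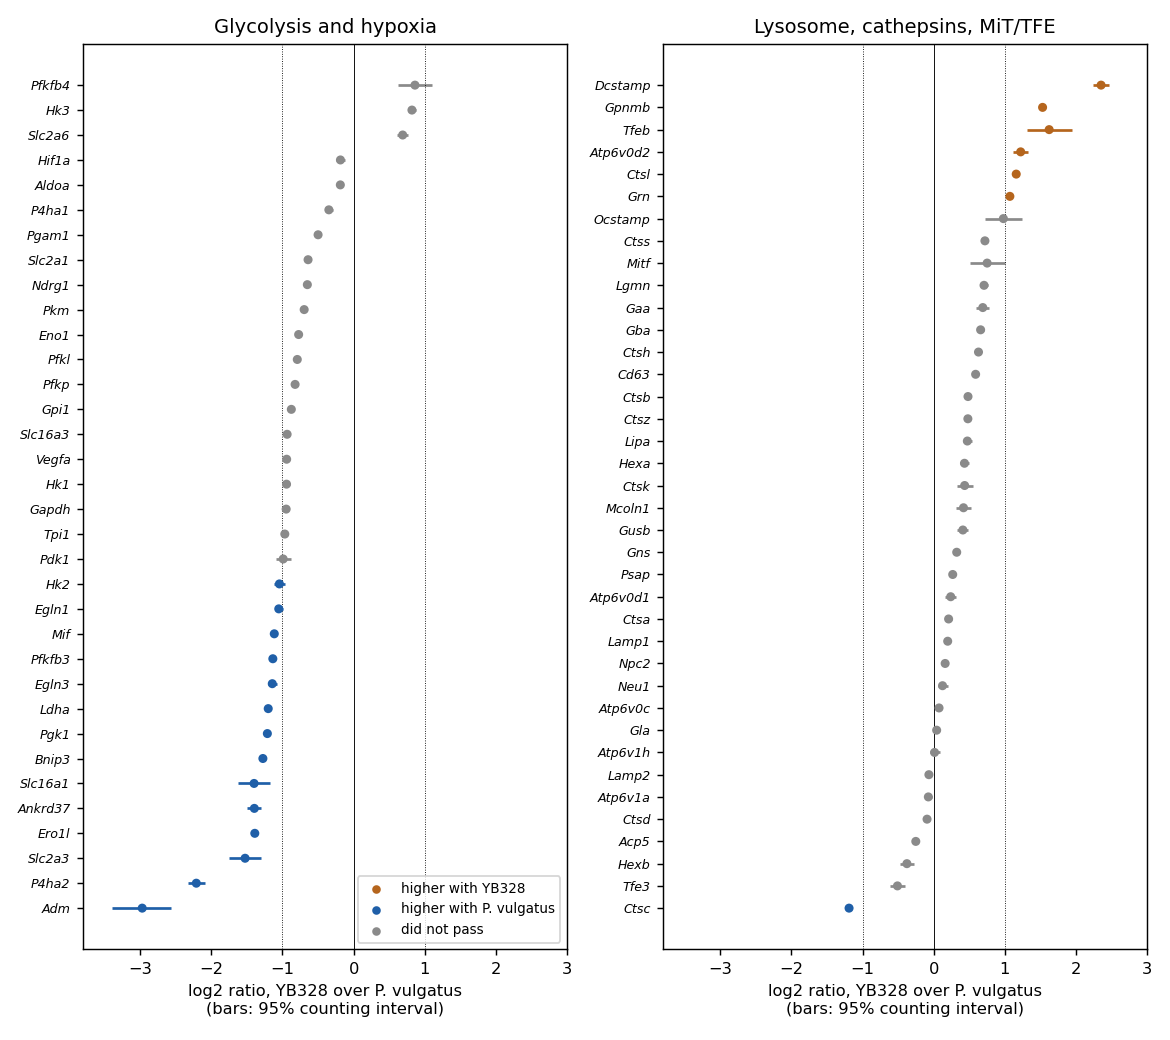
Log2 ratio of YB328 to P. vulgatus with the exact 95% interval from counting error for the 34 compared members of the glycolysis and hypoxia list and the 38 of the lysosome list, without added CPM, 1 library per side. Values below 0 are higher with P. vulgatus: 31 of 34 glycolysis and hypoxia members lie there, and 31 of 38 lysosomal members lie above 0.

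Some macrophage markers were higher with YB328, as were lysosomal and lectin genes, and the lists share members (Gpnmb with the lysosome list, Mrc1 with the lectin list). Their summed level was 5094 CPM in untreated cells, 9511 with P. vulgatus and 15670 CPM with YB328, and Gpnmb alone made up most of the difference between the bacteria. Of 17 compared markers, 5 were higher with YB328 (Ms4a7, Gpnmb, Mertk, Cd68 and Trem2) and 1 with P. vulgatus (Mrc1), beside 2.89% and 2.69% of all compared genes, and the median was 0.31. Ms4a7 was read at 0.648, 28.1 and 114 CPM in untreated, P. vulgatus and YB328 cells, and Mertk, a receptor for dying cells, at 5.44, 2.91 and 7.43 CPM. The deposited TPM of Mertk, 0.703 with P. vulgatus and 2.225 with YB328, was in the same direction but under the minimum of 5. The complement genes C1qa, C1qb and C1qc, which macrophages express, lay at log2 ratios of 0.20, 0.31 and -0.15, and Cd163 was under 1 CPM in both. The part of macrophages in the lysosomal and lectin differences was not tested.

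Markers of dendritic cell subsets differed from list to list, beside 2.89% of all compared genes higher with YB328 and 2.69% higher with P. vulgatus. Of 9 compared markers of type 1 conventional dendritic cells, 0 passed the rule. Irf8, a transcription factor that this subset needs, was read at 1386 with P. vulgatus and 1604 CPM with YB328 (log2 ratio 0.21), Batf3 at 96.9 and 119.7 CPM (0.30) and Id2 at 1752 and 1507 CPM (-0.22). Itgae, the integrin CD103, was read at 1.17 and 1.1 CPM, and Xcr1, the chemokine receptor of the subset, had 88 and 61 counts. Of 7 type 2 markers, Clec10a and the integrin Itgam were higher with YB328 and 0 were higher with P. vulgatus. Of 6 compared plasmacytoid markers, Ly6d (139 counts with P. vulgatus and 36 with YB328) and the inhibitory receptor Lair1 (169 and 66 counts) were higher with P. vulgatus and 0 with YB328 (median -0.45). Lair1 did not pass with 2 CPM added. Of 12 markers of dendritic cells of any type, Jaml, Itgax and Kit were higher with YB328 and Btla with P. vulgatus (median -0.02). Of 14 markers of mature migratory dendritic cells, 1 passed (Apol7c, 2.44-fold higher with YB328), and 11 ratios lay above 0 (median 0.48). Ccr7, the receptor that leads dendritic cells to lymph nodes, was read at 5035 and 4669.7 CPM.

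Called members of the costimulation, antigen presentation and interferon lists are given beside 5.58% of all compared genes called in either direction. Of all compared genes, 2.89% were higher with YB328 and 2.69% with P. vulgatus. Cd40, Cd80, Cd83 and Cd86 had log2 ratios of -0.24, -0.42, -0.06 and 0.19. Of 19 compared costimulation genes only Tnfsf15 passed, 2.08-fold higher with P. vulgatus. Tnfsf15 did not pass with the deposited TPM, total count scaling or 2 CPM added. Cd274, which encodes PD-L1, was read at 141 CPM in untreated cells, 1125 with P. vulgatus and 955 CPM with YB328. All were above the untreated level with both bacteria. Of 24 genes of class I presentation, 0 passed, and H2-K1 was read at 4499 and 4699.6 CPM. Of 14 genes of class II presentation, only Cd68 passed, which is an endosomal glycoprotein and a macrophage marker rather than a presenting molecule. Of 51 genes of the type I interferon response, Ifit2 and Ifit1bl1 were higher with YB328 (2.16-fold and 2.44-fold) and Mx2 with P. vulgatus (3.44-fold), with a median of 0.13. The annotation types Mx2 as a polymorphic pseudogene. Isg15 was read at 924 and 917 CPM and Irf7 at 1293 and 1634 CPM. Of 16 guanylate-binding proteins and immunity-related GTPases and of 13 interferon regulatory factors and receptors, 0 passed.

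In the signalling lists most members did not pass, as was the case for all compared genes, of which 5.58% were called in either direction. Of 30 NF-kB subunits, targets and brakes, 3 were higher with P. vulgatus and 0 with YB328, beside 2.69% and 2.89% of all compared genes: Nfkbiz, a cofactor needed for secondary response genes such as Il6, at 123 against 44.4 CPM, Zc3h12a, an RNase that degrades cytokine transcripts, at 76.3 against 33.0 CPM, and Ier3 at 1343 against 606 CPM. Of 27 immediate early genes, Egr2 was higher with YB328 and the phosphatase Dusp2 with P. vulgatus (3.92-fold). In the list of the MTOR, S6 kinase and STAT pathway, 27 of 29 compared members did not pass. Stat3 was read at 679 and 682 CPM and Rps6kb1, the S6 kinase, at 25.3 and 21.2 CPM. Tsc1, a brake on MTOR, was 2.07-fold higher with YB328 and Eif4ebp1, a brake on translation, 2.02-fold higher with P. vulgatus. Both were at the limit of the rule and not called with the deposited TPM. There Tsc1 was under the minimum of 5 (1.652 and 4.295) and Eif4ebp1 just under the ratio asked (239.8 and 121.6). Tsc1 was also lost with median-of-ratios scaling, a minimum of 20 CPM or 2 CPM added, and Eif4ebp1 with total count scaling.

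Lists of core cellular machinery had 0 to 2 called members each, beside 5.58% of all compared genes called in either direction. The lists with called members lay near that share. Of 38 nuclear genes of oxidative phosphorylation, 49 cytosolic ribosomal proteins, 28 autophagy genes, 29 genes of cholesterol synthesis, uptake and efflux, and 18 genes of metallothioneins, zinc and iron handling, 0 passed in either direction, with medians of 0.11, 0.14, -0.23, -0.25 and -0.24. All 13 mitochondrially encoded genes had a ratio below 0 (median -0.31) and 0 passed. Lars2, a mitochondrial tRNA synthetase gene, was read at 67688 CPM in untreated cells, 3111 with P. vulgatus and 1548 CPM with YB328, in the same order as the ribosomal RNA share given above. Of 20 cell cycle genes, Mki67 alone passed, at 2.34 and 6.99 CPM. With the deposited TPM, Mki67 and Phgdh were under the minimum of 5 in both libraries and Lars2 was under the ratio asked (861.7 and 454). Of 18 housekeeping genes, Pgk1 alone passed, which is a glycolytic enzyme, and the median was -0.13. Of 32 genes of the unfolded protein and integrated stress response, Phgdh, a serine synthesis enzyme, and Herpud1, a factor of protein degradation at the endoplasmic reticulum, were higher with YB328 and 0 with P. vulgatus.

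In marker lists of other blood cells, many members lay under the level compared. Of 9 compared neutrophil markers, 1 was higher with YB328 and 2 with P. vulgatus. Of 3 compared B cell markers, 1 was higher on each side. The only compared T and NK cell marker, Gzmb, was higher with P. vulgatus. Of 6 compared progenitor markers, 3 were higher with YB328 and 1 with P. vulgatus. Over all compared genes these shares were 2.89% and 2.69%. The summed level of neutrophil markers was 4749 CPM in untreated cells, 1634 with P. vulgatus and 1332 CPM with YB328. Mmp8, a collagenase of neutrophils, was 4.27-fold higher with YB328, with 1546 against 6803 counts, while Camp and Mmp9 were 3.07-fold and 2.28-fold higher with P. vulgatus. B cell markers summed to 11.28, 37.78 and 18.68 CPM and T and NK cell markers to 3.824, 21.12 and 8.313 CPM, so the highest sums of both were with P. vulgatus. Ighm and Gzmb were higher with P. vulgatus, at 20.7 against 5.38 CPM and at 11.8 against 3.48 CPM, while the B cell marker Cd22 was 2.29-fold higher with YB328, with 66 against 156 counts. Among progenitor markers, Cd34 was 7.13-fold higher with P. vulgatus and Kit, Ly6a and Sox4 were higher with YB328. Ly6a, which interferon also induces and which has close relatives, was read at 1.94, 321 and 684 CPM. The part of these cells in the differences above was not tested.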

How the data were processed

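Per the labels' protocols, extraction used the RNeasy Micro Kit, and cDNA and libraries came from SMART-Seq v4 Ultra Low Input and Nextera XT, which does not mark strand. Per the submitters' processing notes, DRAGEN and the genome GRCm38 were used, and their version, the counter and the annotation release were not given in the sources used here. Per the file headers, the authors deposited for each library an estimated count (expected count) per gene, not scaled between libraries, and a TPM value, corrected for gene length. Values that were not whole made up 8.86% to 9.99% of genes, and counts were rounded.

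Counts were scaled over the 3 libraries by TMM (edgeR 4.0.16 in R 4.3.3, size factors only) to CPM. The rest was computed in Python 3.11.15 (pandas 2.3.3, numpy 2.4.6, scipy 1.17.1), and figures were drawn with matplotlib 3.10.9. No test across libraries was made, since each group has 1. Genes were called by the rule of size in the text (5 CPM, 0.5 CPM added, log2 ratio of 1, 95% interval of the ratio of counts given their sum). A fold is a ratio of CPM with nothing added. A floor of 3 counts equals 0.194 CPM untreated, 0.113 CPM for P. vulgatus and 0.11 CPM for YB328. The method was tested on counts simulated with counting error only. The simulation held no spread between cultures and only changes larger than the ratio asked.

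Gene lists (33 of functions, 14 of cell type markers), a panel of 32 genes and the rules were chosen with earlier results of these data known. The aryl hydrocarbon receptor list, the xenobiotic and hypoxia motifs and the placing of the untreated level under other scalings were added after the values were seen. Leading genes were picked among called genes whose higher library held at least 20 CPM. They are the 15 with the largest ratios and the 6 with the largest CPM differences per direction. Predicted models, pseudogenes other than polymorphic ones, and receptor or antibody segments were left out of them. Also named are up to 4 called members per list and direction, and the panel, whatever their level or type. Genes named beyond these (among them Cd36, Trem2, Ctsl, Hk2, Egln1, Pfkfb3 and list members that did not pass) were chosen after their values were seen. The alternatives tried were 5 other scalings, the deposited TPM, levels of at least 20 CPM or no minimum, an added 0.1 or 2 CPM, counts thinned to the shallower library and a log2 ratio of 2. Promoters within 1000 bases of the deposited gene start were matched by name. Several genes shared a symbol in 114 cases. Reads and transcripts were not analysed here. Values of 1 called gene are not reported here.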

Additional observations from a re-analysis of the deposited data

How the results depend on the processing

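With 1 library per group, depth limits only counting error, and the spread between cultures is unknown. No paired analysis was possible because each group has 1 library, and no replicate could be left out. The counts of genes higher with YB328 and with P. vulgatus were 282 and 263. They became 782 and 764 without a minimum level (21810 genes compared), 112 and 111 with a minimum of 20 CPM (6273 compared), and 43 and 36 with a log2 ratio of at least 2. Under the other alternatives they stayed within 1.5 times, from 217 to 317 and from 187 to 293. The deposited TPM gave 317 and 208 (60.4% higher with YB328, against 51.7%), shared only 178 and 138 of them with the CPM calls, and moved the median log2 ratio of all genes to 0.1. Of 116 named genes that passed, 82 passed in each of 11 alternatives that gave a value, which leave out the log2 ratio of 2, 34 were lost in at least 1 of the 11, in most cases the TPM or the minimum of 20 CPM, and 0 changed sign. Of 48 list medians, 9 turned sign in at least 1 alternative: chemokines, prostaglandin synthesis, arginine metabolism, MTOR, NRF2, heat shock, dendritic cells of any type, monocytes and B cells. The glycolysis list had 13 to 15 members higher with P. vulgatus and a median between -0.96 and -0.85, and the cause of the other shifts was not tested.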
